A study of Orbicella faveolata with 48 samples.

Results

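The comparison described here is the coral side of a short heat exposure: inshore fragments of the reef-building coral Orbicella faveolata held for 5 days at 33 °C, set against inshore fragments of the same genotypes kept for 5 days at 30 °C. It asks which coral transcripts respond to the warmer water. It takes the libraries that the labels mark as inshore and as sampled at 5 days, 9 heated and 9 control, which is 18 of the 48 libraries of the series. The other libraries are the 6 offshore libraries of 5 days, the 18 inshore libraries of 31 days, in which the heated fragments stood at 32 °C, and offshore libraries of 31 days. RNA was taken from whole coral tissue, so coral and algal RNA were extracted together, and the counts analysed are those assigned to coral features.

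The fragments of both groups were acclimated and then brought to their temperature over some days, and the labels name no other agent and no genetic change in either group. Each arm holds the same 9 colony tags under 4 genotype labels. In1 is represented by tags A3, A4 and A6, In2 by BLY5 and BLY6, In3 by D3, D5 and D6, and In4 by B4 alone, so that In4 has 1 library in each arm. At 31 days the labels place tag BLY5 under In4 and tags B2 and B3 under In2. A tag name or genotype label may therefore not mark the same coral at both times. The model of both times fitted genotype labels within each day. Nothing in the labels says whether tags under 1 genotype label came from separate colonies, and the p-values over libraries therefore measure the spread between fragments. The age of the fragments is not given.

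Reef-building corals are animals that house photosynthetic algae inside the cells of their inner tissue layer and live largely on the sugars these algae release. Water that is warmer than the usual summer maximum disturbs this partnership, and corals may lose the algae, which is known as bleaching. Before and during such loss the coral cell is known to change the level of many transcripts, with chaperones that refold damaged proteins, antioxidant enzymes and protein-degradation genes commonly reported among those that rise. The features in these tables are sequences of a transcriptome assembly and carry identifiers without gene names, so none of these gene groups could be counted here, and the tissue could not be checked against markers by name. What can be described is how many coral transcripts moved, how far, at which abundance, and how closely genotypes and related transcripts moved together.

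The coral table lists 87440 features, each the single listed isoform of its assembled gene, which fall into 62316 components (groups of assembled genes that share sequence). Coral totals of the 18 libraries ran from 5017003 to 6686881 counts. They were higher under heat, 6132000 ± 396500 (SD, n = 9) against 5639000 ± 345100, and an exact permutation test of the arms within genotypes gave p = 0.02417 (two-sided, adjusted over 4 measures p = 0.04833). The number of features detected did not pass the same test, 54640 ± 1840 under heat against 53610 ± 2484 (exact permutation p = 0.2054), nor did the share of counts in the 100 most abundant features, 16% ± 0.868 against 16.45% ± 0.970 (exact permutation p = 0.2271). The algal share of all counts was 11.29% ± 3.128 under heat and 17.26% ± 2.458 in controls, and algal counts per coral count were lower under heat in 8 of 9 tags, with a mean log2 difference of -0.7492 (exact permutation p = 0.002917, adjusted p = 0.01167). Both the totals and the algal share thus moved with the heat. Their part in the results that follow was not tested.

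Coral transcripts moved in both directions under heat. Of 25994 features with enough counts to test, which held 97.7% of the coral counts, 1727 rose and 1760 fell in fragments at 33 °C (edgeR quasi-likelihood test with genotype as a block, adjusted p under 0.05). That is 13.4% of the features tested, 6.64% higher and 6.77% lower. The features that rose had a median log2 change of 0.59 (interquartile range 0.40 to 0.84), and those that fell one of -0.69 (-1.33 to -0.43), where the median over all tested features was 0.01. In CPM, the coral counts of a feature scaled to a common library size, the median rising feature stood at 16.5 CPM in controls and 25.5 CPM under heat, and the median falling feature at 24.9 and 13.8 CPM. CPM is a relative level: in whole tissue, fewer cells of a type and less RNA per cell cannot be told apart. The balance of directions moved with the scaling and the filter, to 1918 higher and 1547 lower with library totals in place of TMM and to 1305 and 2159 with no filter on low counts. Without In3, which has 3 of the 9 tags, the count was 482 higher and 808 lower. Without In1, which also has 3 tags, it was 1649 and 1605. With counts summed per genotype label and arm, 4 against 4, it was 487 and 837, and with no genotype term 694 and 1044.

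The falls were more often large than the rises. Under 1.5-fold there were 861 rises and 740 falls, and at 1.5 to 2-fold 609 and 406. Above that the balance turned: 234 features rose and 505 fell 2 to 4-fold, and 23 rose and 109 fell 4-fold or more. Changes of at least 2-fold were thus 14.9% of the rises (257 features) and 34.9% of the falls (614 features). A test against a change of 1.5-fold itself (edgeR glmTreat, adjusted p under 0.05) called 607 features, 2.34% of those tested, of which 166 (0.639%) were higher and 441 (1.7%) were lower. The count of rises of at least 2-fold was 466 without In1 and 149 without In3, and 390 with a filter set over all 8 groups of the series. With no filter on low counts, 398 rises and 1236 falls of at least 2-fold were called, and 962 features passed the test against 1.5-fold.

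**Figure D1:**
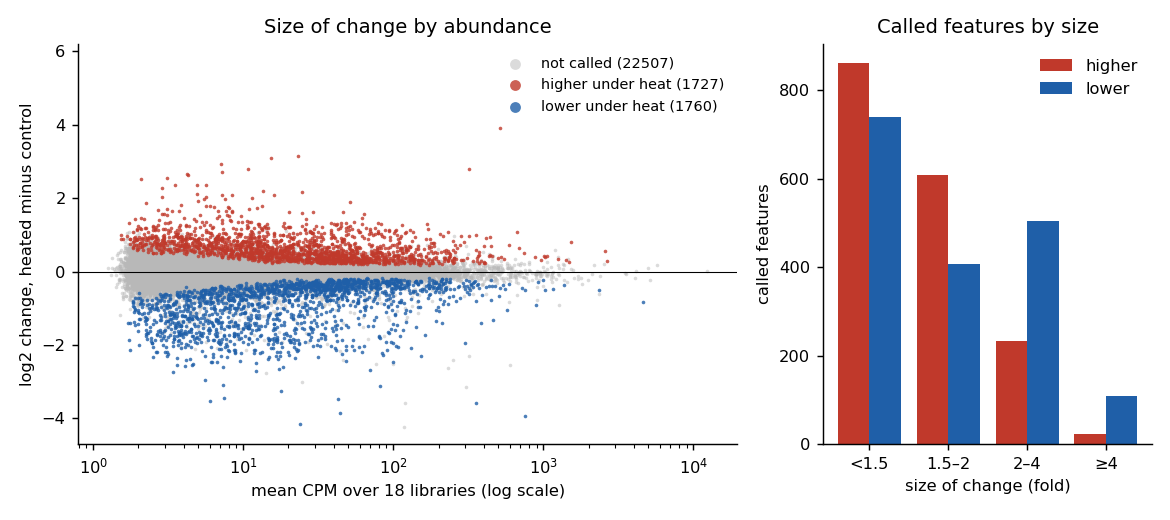
The log2 change of each of the 25994 tested coral features, heated minus control, against its mean CPM over the 18 libraries on a log axis (left, points coloured by the edgeR call), and the number of called features in each class of fold change (right, bars). Rises crowd below 2-fold, while 505 falls lie between 2 and 4-fold and 109 at 4-fold or more.

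Rare and abundant transcripts differed in how often and how far they were called. Among features with a mean of 100 CPM or more, 422 of 2034 were called (20.7%), against 1956 of 11774 (16.6%) at 10 to 100 CPM and 1109 of 12186 (9.1%) at 1 to 10 CPM. The median standard error of the log2 change was 0.09, 0.11 and 0.21 in these 3 classes, and the smallest change called was 0.17, 0.18 and 0.35, so the test reached smaller changes where counts were high. The size of the called changes ran the other way, over called features alone. Changes too small to be called do not enter the medians and shares that follow, and that limit was higher for rare features. Rises had a median log2 change of 0.42 at 100 CPM or more, 0.50 at 10 to 100 CPM and 0.79 at 1 to 10 CPM, and falls one of -0.44, -0.53 and -1.14. Of the falling features at 1 to 10 CPM, 57% fell at least 2-fold (337 of 591), against 13.2% (27 of 204) at 100 CPM or more. For rising features these shares were 24.5% (127 of 518) and 7.34% (16 of 218). At 10 to 100 CPM 25.9% of falls (250 of 965) and 11.5% of rises (114 of 991) reached 2-fold, so that large changes were a larger share of falls than of rises in each of the 3 classes.

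The called features changed their summed share of the coral counts. The rising features together made up 7.18% to 8.02% of coral counts in the 9 control libraries (mean 7.55% ± 0.276, SD) and 10.3% to 12.5% in the 9 heated libraries (mean 11.2% ± 0.718). The falling features made up 10.4% to 12.6% in controls (mean 10.9% ± 0.695) and 6.23% to 8.4% under heat (mean 7.11% ± 0.734). These sums describe the features that the same libraries chose, so they are given with no test. Among heated libraries the 3 of In3 held the largest shares of rising features, 11.8%, 12.5% and 11.7% in D3, D5 and D6, and the smallest of falling features, 6.32%, 6.23% and 6.7%. The A4 control stood apart with 12.6% in falling features, the other controls being at 10.4% to 11.2%. A small part of the called features carried much of these sums. Of the 1727 rising features 128 made up 50% of the summed gain of 35600 CPM. Of the 1760 falling features 122 made up 50% of the summed loss of 40100 CPM. The 10 largest contributors gave 15.2% of the gain and 18.8% of the loss.

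Some transcripts were counted in 1 arm alone. No feature had 0 counts in all 9 controls and counts in all 9 heated libraries, and 1 had the reverse pattern. With counts asked for in 6 or more libraries of the other arm, 25 features were at 0 in every control. By the same rule 38 were at 0 in every heated library. These counts reach beyond the features tested and are given without a share, beside 84359 features with any count in the 18 libraries. The filter on low counts asked for a minimum level in at least 9 libraries, so it largely removed features at 0 throughout 1 arm. Complete separation of the arms was uncommon among tested features. In 396 of them (1.52%) the heated and control libraries did not overlap in CPM. All heated libraries were above all controls in 88 features and below them in 308.

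A rule of size named 4 features, the 2 with the largest gain and the 2 with the largest loss in mean CPM among called features that moved the same way in all 9 tags. They fall into a pair of highly abundant transcripts with modest changes and a pair of less abundant ones with very large changes. None could be given a gene name or a role.

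OFAVBQ_DN222214_c0_g2_i2, the 11th most abundant tested feature, rose in every tag. In control fragments it stood at 1970 CPM in A3, 1840 in A4, 2020 in A6, 2090 in BLY5, 1840 in BLY6, 2260 in D3, 2770 in D5, 2330 in D6 and 1620 in B4. In heated fragments it stood, in the same order, at 3480, 2850, 2410, 3230, 2590, 3210, 2940, 3920 and 2880 CPM. The arms overlapped only through the D5 control, which was above 2 of the heated libraries, A6 and BLY6. The mean went from 2080 CPM ± 336 (SD, n = 9) to 3060 CPM ± 461, a log2 change of 0.56 (SE 0.09, edgeR adjusted p = 0.000339), and this feature did not pass the test against 1.5-fold.

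OFAVBQ_DN218234_c4_g1_i2 showed the largest log2 rise of all called features, 3.90 (SE 0.46, edgeR adjusted p = 2.6e-05). Its control level differed between genotypes, at 174, 203 and 142 CPM in A3, A4 and A6 of In1, and at 76.9 CPM in BLY5, 8 in BLY6, 17.6 in D3, 31.2 in D5, 7.3 in D6 and 23.5 in B4. Under heat it reached 1490, 1420 and 2530 CPM in A3, A4 and A6, 241 and 227 in BLY5 and BLY6, 388, 990 and 861 in D3, D5 and D6, and 486 in B4. Every heated library lay above every control. The mean went from 75.9 CPM ± 77 to 959 CPM ± 756 (n = 9 each), with the 3 tags of In1 the highest in both arms. Within tags the rise ran from 3.13-fold in BLY5 to 113-fold in D6.

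OFAVBQ_DN222629_c2_g2_i3, the 14th most abundant feature, fell in every tag by a modest amount. Its control levels were 2330 CPM in A3, 2570 in A4, 2200 in A6, 3000 in BLY5, 3660 in BLY6, 2460 in D3, 2010 in D5, 2800 in D6 and 3590 in B4, and its heated levels, in the same order, were 1280, 2170, 1880, 2350, 2260, 1740, 1480, 1690 and 2670 CPM. The arms overlapped, and the heated B4 fragment stood above 5 of the 9 controls. The mean went from 2740 CPM ± 587 to 1950 CPM ± 449 (n = 9 each), a log2 change of -0.49 (SE 0.10, edgeR adjusted p = 0.00225), which did not pass the test against 1.5-fold. Without In3 the change was -0.45 (edgeR adjusted p = 0.0638) and with no genotype term -0.49 (edgeR adjusted p = 0.0536).

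OFAVBQ_DN220156_c0_g1_i1 fell from 626 CPM ± 218 to 83.7 CPM ± 144 (n = 9 each), a log2 change of -3.58 (SE 0.54, edgeR adjusted p = 0.000206). Controls stood at 862 CPM in A3, 910 in A4, 685 in A6, 298 in BLY5, 538 in BLY6, 326 in D3, 560 in D5, 796 in D6 and 659 in B4. Heated fragments stood, in the same order, at 73.7, 461, 37.8, 30.1, 11.4, 22.8, 5.37, 32.7 and 78.1 CPM. The heated A4 fragment was far above the other 8 heated fragments and above the controls of BLY5 and D3, and no other heated fragment reached a control. A4 fell 1.97-fold, and the other tags fell from 8.4-fold in B4 to 98-fold in D5.

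**Figure D2:**
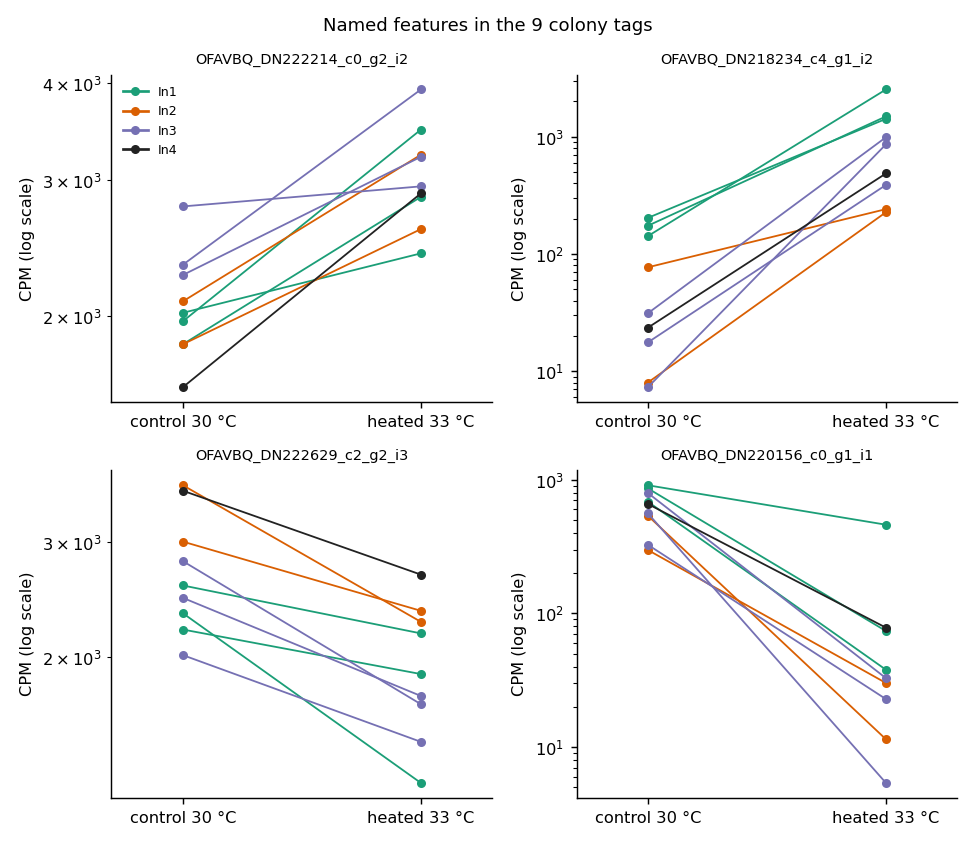
CPM on a log axis of the 4 named features in the control (30 °C) and heated (33 °C) fragment of each of the 9 colony tags, joined by a line per tag and coloured by genotype label. All lines rise in the upper panels and fall in the lower ones, and the heated A4 fragment (461 CPM) stands above the other heated fragments of OFAVBQ_DN220156_c0_g1_i1.

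Called features mostly moved the same way in all 4 genotypes, and less often in all 9 tags. Of the 1727 rising features 775 rose in all 9 tags and 699 in 8, and 1531 rose in all 4 genotypes. Of the 1760 falling ones 968 fell in all 9 tags and 568 in 8, and 1611 fell in all 4 genotypes. Among all tested features 1957 (7.53%) moved the same way in all 9 tags. No such share is given for the 4 genotypes. These counts use the libraries that made the calls, so agreement was measured again in libraries that took no part. For this, features were called in 3 genotypes and their sign was read in the fourth.

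The share of features with the same sign in the genotype left out was 80.42% of 3254 for In1, 87.34% of 2685 for In2, 96.98% of 1290 for In3 and 89.07% of 2974 for In4. Over all tested features, 49.45% to 50.8% were above 0 in the genotype left out. The size of the change differed more than its sign. The slope of the change in the genotype left out on that in the others was 0.51 for In1, 0.58 for In2, 0.88 for In3 and 0.85 for In4. Features that rose in the others with a median log2 change of 0.75 rose by 0.27 in In1, and those that fell by a median of -0.83 changed by -0.40. In In3 the pairs were 0.80 and 0.87 for rises and -1.32 and -1.07 for falls. The lists differ in length and members between genotypes, because each is called without the genotype it is read in, so these values are a description and their differences were not tested. Features chosen for a large change in 1 set of libraries tend to show a smaller one in any other set, which lowers a slope.

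The largest falls of the other genotypes were the least often matched in In1. Features that fell 4-fold or more in the other 3 genotypes (140) had the same sign in In1 in 67.9% of cases, with a median log2 change of -0.78 where the others had -2.36. For In2, In3 and In4 the matching shares were 90.7%, 99.2% and 98.3%, and the medians -1.43, -1.83 and -1.87. Features that fell 2 to 4-fold in the others (541) changed nearly as far in In1, by a median of -1.40 against -1.43. Smaller falls did not, with medians of -0.43 against -0.76 for falls of 1.5 to 2-fold and -0.17 against -0.43 below that. Rises of 4-fold or more had the same sign in 94.3% of 35 features in In1, 95.8% of 24 in In2 and in all features of In3 (12) and In4 (21). The 140 steepest falls were chosen without In1. The model of all 4 genotypes gave its own list of 109 features that fell 4-fold or more, which may share members with the 140. In1 helped to choose these 109 features. Their median levels in A3, A4 and A6 were -0.15, 1.32 and 0.14 in controls (log2, against the control mean). Under heat they were -2.20, -1.72 and -1.72. The difference of In1 from the others in these classes was not tested.

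**Figure D3:**
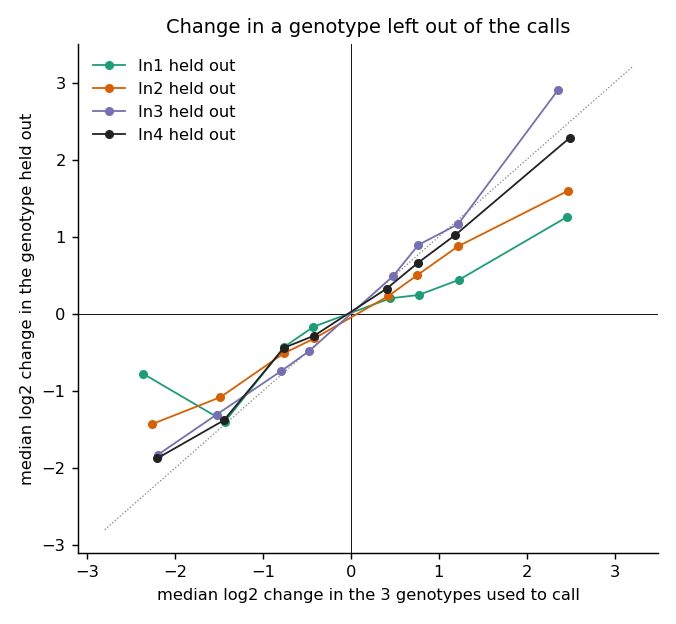
Median log2 change in a genotype left out of the calls (vertical) against the median in the 3 genotypes used to call (horizontal), for features grouped by direction and size class, 1 line per genotype left out; the dotted line marks equal change. In3 and In4 lie near the dotted line, In2 below it in size, and In1 turns back to -0.78 in the class of falls of 4-fold or more.

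Single tags spread more widely than genotypes, with slopes of 0.31 to 1.18 where those of genotypes ran from 0.51 to 0.88. The share of features with the same sign ran from 65% in A6 of In1, the lowest, to 95.6% in D3 of In3, the highest. The slopes on the other genotypes were 0.59, 0.63 and 0.31 in A3, A4 and A6, 0.57 and 0.60 in BLY5 and BLY6, 1.18, 0.73 and 0.74 in D3, D5 and D6, and 0.85 in B4. Algal counts per coral count fell unequally too. The log2 change of that ratio was -0.10, -0.40 and 0.02 in the 3 tags of In1, -0.51 and -1.27 in BLY5 and BLY6, -0.31, -1.71 and -0.98 in D3, D5 and D6, and -1.49 in B4. A6 had both the smallest slope and no fall in algal counts, whereas D3 had the largest slope with a small algal change. In D3 the falls had a median of -1.42, against -0.86 and -0.84 in D5 and D6. Its rises were like theirs, at 0.88 against 0.93 and 0.82. The D3 control was itself high in features that fell 4-fold or more, at 0.82 (log2) above the control mean, as was the A4 control, at 1.32. The part of these controls in the slopes was not tested. The tags belong to 4 genotypes and their slopes come from different lists, so no correlation is given. Whether the algal change had a part in the size of the coral response was not tested.

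**Figure D4:**
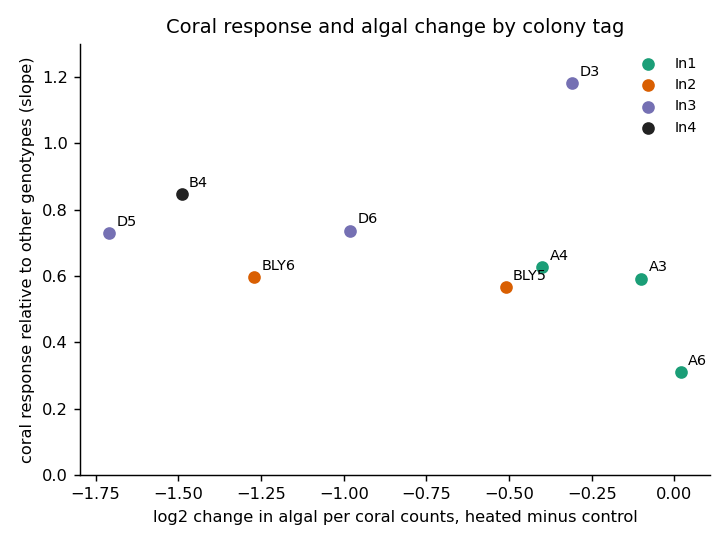
Slope of the coral response of each colony tag on that of the other 3 genotypes (vertical) against the log2 change in algal counts per coral count, heated minus control (horizontal), 1 point per tag coloured by genotype. The In1 tags lie at the right with slopes of 0.31 to 0.63, and D3 stands above all other tags at 1.18.

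Differences between genotypes in the response were tested directly and were called for few features. The 3 genotype-by-heat terms together were called in 2 of 25994 features, 0.00769% (edgeR, adjusted p under 0.05), with 1983 at an unadjusted p under 0.05. Both were picked out after their values were seen. OFAVBQ_DN216671_c5_g1_i11 rose in In1, from 5.2, 4.78 and 5.72 CPM in A3, A4 and A6 to 39.3, 39.4 and 34.8 CPM, and went from 9.51 and 9.11 to 15.5 and 16.9 CPM in BLY5 and BLY6. In In3 it stood at 13.3, 6.53 and 12.3 CPM in controls and 10.8, 6.99 and 8.5 CPM under heat, and in B4 at 8.61 and 12.1 CPM. The fitted log2 changes were 2.85 in In1, 0.80 in In2, -0.30 in In3 and 0.49 in In4 (edgeR adjusted p of the difference 0.0305).

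OFAVBQ_DN221607_c2_g1_i5 also rose in In1, from 4.43, 4.1 and 4.68 CPM to 30.9, 28.9 and 21.5 CPM. It was abundant in BLY5 and BLY6 in both arms, at 45.6 and 35.1 CPM in controls and 62 and 82.8 CPM under heat, and went from 41.1 to 19.6 CPM in B4. In the 3 tags of In3 it was at most 1.57 CPM in either arm. The fitted log2 changes were 2.62, 0.84, -1.08 and -1.07 in In1 to In4 (edgeR adjusted p of the difference 0.0376), and the In3 value compares levels near 0. The count of such features hung on single libraries and on the tool: it ran from 0 to 11 with 1 library left out, and was 12 without In4, 182 with DESeq2 and 1416 with no filter on low counts. Both features had their largest rise in the 3 tags of In1, the genotype with the lowest slope above.

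Calls within a genotype come from different numbers of libraries and were not compared as sizes of response. With 3 libraries an arm, In1 gave 657 called features (2.53%; 184 higher, 473 lower) and In3 gave 1672 (6.43%; 909 higher, 763 lower). In2, with 2 libraries an arm, gave 158 (0.608%; 79 in each direction), and In4, with 1 library an arm that is taken to vary like the others, gave 7 (0.0269%). At an unadjusted p under 0.05 these counts were 3389, 5192, 3912 and 2014. Of the features called in any genotype, 1539 were called in 1 genotype, 395 in 2, of which 1 in opposite directions, and 55 in 3.

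The genotype-by-heat test called none of the 4 named features, which were chosen for moving the same way in all 9 tags. The large rise of OFAVBQ_DN218234_c4_g1_i2 was fitted at 3.39 in In1, 2.45 in In2, 5.32 in In3 and 4.37 in In4 (log2; edgeR p of the difference 0.0403 unadjusted and 0.631 adjusted over all features). The fall of OFAVBQ_DN220156_c0_g1_i1 was fitted at -2.10, -4.33, -4.79 and -3.08 in the same order (edgeR adjusted p 0.737). For the abundant pair the changes were 0.45 to 0.83 and -0.57 to -0.41 over genotypes (edgeR adjusted p 0.963 and 0.993).

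Across the transcriptome most of the spread between the 18 libraries went with genotype. Genotype accounted for 62.2% of the squared distance in log2 CPM, heat for 9.01% and the remainder for 28.8%. Heat passed an exact permutation test of the arms within genotypes (p = 0.000417, the smallest that the 4800 arrangements can give). Genotype has 3 terms in this split and heat has 1, and the 2 shares are not of equal kind. Over the 13808 features of 10 CPM or more, the changes of tags of 1 genotype correlated at a median r of 0.377 (0.14 to 0.539, 7 pairs of tags), and those of tags of different genotypes at 0.32 (-0.0951 to 0.651, 29 pairs). These r describe features within these libraries, which are not independent, and the ranges within and between genotypes overlap.

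Related transcripts tended to move together. Since the table holds 1 isoform per assembled gene, isoforms of a gene could not be compared, and assembled genes of the same component were compared instead. There were 2855 components with 2 or more tested features, holding 6189 features and 3910 pairs, and the log2 changes of the 2 members correlated at r = 0.482 across pairs, as a description, since estimated counts can be split between near-identical sequences of a component. Beside a called rise the other tested features of the component also went up in 76.4% of cases (431 of 564), and 178 were called higher themselves, where 51.8% of all tested features were above 0 and 6.64% were called higher. Beside a called fall they went down in 74.8% (324 of 433), and 146 were called lower, against 6.77% of all tested features. Pairs with both members called were counted from each side in these numbers, which are therefore not counts of distinct features. Of all pairs, each counted once, 162 were called in the same direction and 16 in opposite directions.

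Unequal change within a component was called for 66 of 2855 components, 2.31% (edgeR diffSpliceDGE, Simes, adjusted p under 0.05). Summed per component, 3219 of 23346 sums were called (13.8%), 1572 higher and 1647 lower, a like share to that of single features. Only 2855 components held 2 or more tested features, so most sums did not combine tested features. The like share therefore largely repeats the single-feature test and does not measure agreement within components. Both named falling features had a tested partner. The g2 partner of OFAVBQ_DN220156_c0_g1_i1 went from 32 to 3.51 mean CPM, and its log2 change of -3.26 (SE 0.46, edgeR adjusted p = 0.000104) was close to that of the named feature itself. The g5 partner of OFAVBQ_DN222629_c2_g2_i3 was rare and went from 3.23 to 1.68 CPM, with a log2 change of -0.97 (SE 0.25, edgeR adjusted p = 0.0136). The named rising features had no tested partner.

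The steepest falls varied together among the unheated libraries of 5 days. Over the 9 control libraries the log2 CPM of the 109 features that fell 4-fold or more correlated with each other at a mean r of 0.518, and those of the 505 that fell 2 to 4-fold at 0.24. Features that fell less than 2-fold were at 0.0424, those that rose 4-fold or more at 0.101, those that rose 2 to 4-fold at 0.00848, and all tested features at 0.00028. Part of this goes with the A4 and D3 controls, in which the median level of the 109 features was 1.32 and 0.82 (log2) above the mean of the controls, the other 7 controls lying between -0.70 and 0.14. Without A4 the mean r was 0.428, and without A4 and D3 it was 0.338. The controls took part in choosing these features. In the 9 inshore controls of 31 days, which did not, the mean r was 0.277, against 0.0902 for the steepest rises and 0.000188 for all tested features. Over the 18 inshore libraries of 31 days, each arm centred on its own mean, it was 0.476. In the 9 heated libraries of 5 days the order was reversed, with 0.218 for the steepest falls and 0.406 for the steepest rises. Genotype differences were not removed from any of these r. The heated median levels of the steepest rises were 1.52 to 1.94 in In1 and 2.06 and 2.12 in In2. They were 2.16 in In4 and 2.75 to 3.18 in In3. The part of genotype in these r was not tested.

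In heated coral this group stood at a narrow, low level. Over the 9 fragments its median lay between -2.27 and -1.72 (log2, against the mean of the 5-day inshore controls), a range well below every control. Offshore, where no library took part in the choice, it lay between -0.90 and 0.12 in the 3 controls of 5 days and between -2.02 and -1.59 in the 3 heated fragments. At 31 days inshore it lay between -1.02 and -0.29 in the 9 controls and between -2.22 and 0.36 in the 9 heated fragments, so that the arms overlapped. The 31-day controls were thus all below 6 of the 9 controls of 5 days.

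The steepest rises spread over a wider range of levels under heat. The median of the 23 features that rose 4-fold or more lay between -0.39 and 0.76 in the inshore controls of 5 days and between 1.52 and 3.18 in the heated ones, with the 3 In3 tags highest. Offshore it lay between -0.53 and 0.76 in controls and between 2.02 and 3.78 under heat. At 31 days inshore it lay between -0.53 and 0.37 in controls and between 0.23 and 1.78 under heat.

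**Figure D5:**
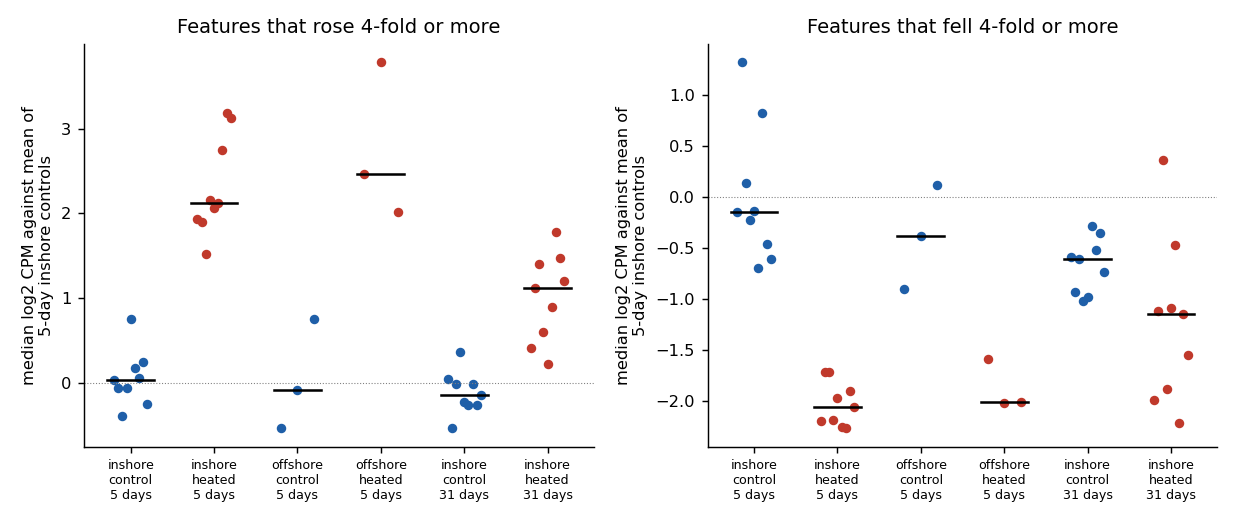
Median level per library of the features that rose (left) or fell (right) 4-fold or more in inshore coral at 5 days, as log2 CPM against the mean of the 5-day inshore controls; each point is 1 library and each bar the median of its group. The 5-day inshore groups chose the features, while the offshore and 31-day groups did not; heated fragments separate from controls offshore at 5 days, and inshore at 31 days the arms overlap in both sets.

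Offshore coral at the same temperature and time moved the inshore features in the same direction. In the 6 offshore libraries of 5 days, 93.4% of the inshore rises and 96.4% of the inshore falls had the same sign, where 52.8% of all features tested there were above 0, with medians of 0.52 and -0.66 beside the inshore 0.59 and -0.69. The offshore response differed from the inshore one in 31 of 34540 features (0.0898%; 1827 at an unadjusted p under 0.05; 17 with colony tags as the replicate block and 47 with DESeq2), and 8 of these were among the 1760 inshore falls and 0 among the 1727 rises. With 3 offshore libraries an arm, the test of the difference is less precise than that of the inshore response. Of the named features, OFAVBQ_DN218234_c4_g1_i2 was called offshore as well (log2 change 5.32, SE 1.09, edgeR adjusted p = 0.0126), as was OFAVBQ_DN222214_c0_g2_i2 (0.62, SE 0.16, edgeR adjusted p = 0.0447). OFAVBQ_DN222629_c2_g2_i3 and OFAVBQ_DN220156_c0_g1_i1 had offshore log2 changes of -0.36 and -2.45 that were not called (edgeR adjusted p = 0.268 and 0.227), and no difference between habitats was called for any of the 4.

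At 31 days and 32 °C the inshore response was smaller in most of these features. Of the 5-day rises 73.5% had the same sign at 31 days, with a median log2 change of 0.21, and of the 5-day falls 82.8%, with a median of -0.31, where 53.7% of all features tested there were above 0. The difference between the 31-day and the 5-day response was called for 467 of 31012 features (1.51%; 4934 at an unadjusted p under 0.05). The count was 1047 with DESeq2, and 220 without the heated B2 and B3 fragments of 31 days, a setting added after seeing the data. It was called for 155 of the 1727 rises, all of them less far up or below controls at 31 days. Their median was 0.81 at 5 days and turned to -0.32 at 31 days. It was also called for 194 of the 1760 falls, 192 of them less far down (median -1.86 and -0.25). Features that fell 4-fold or more were the most often called, 70 of 109, with medians of -2.21 and -0.38. These features were chosen by their change at 5 days, and temperature and duration differ together between the 2 times.

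At 31 days 1 of the 4 named features was called. OFAVBQ_DN218234_c4_g1_i2 was still higher in heated fragments (log2 change 3.46, SE 0.75, edgeR adjusted p = 0.00407). The other 3 were not called, at -0.09 for OFAVBQ_DN222214_c0_g2_i2, -0.09 for OFAVBQ_DN222629_c2_g2_i3 and -1.08 for OFAVBQ_DN220156_c0_g1_i1 (edgeR adjusted p = 0.778, 0.741 and 0.16). The difference from the 5-day change was not called for any of the 4 (edgeR adjusted p from 0.0731 to 0.884).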

How the data were processed

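RNA of whole coral tissue went into stranded mRNA libraries. The authors deposited estimated counts per assembled feature in 2 tables, coral and symbiont. The table names mention kallisto, and the submitters' processing notes list Trimmomatic 0.36 and RSEM without a role. The counting tool and its reference were not given in the sources used here. Values were rounded for tests (23.2% of the coral values in the 18 libraries were not whole, tolerance 1e-06), and reads of near-identical features may be split between them. A coral control column named BL6 was taken as tag BLY6, which had no other column.

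The 18 libraries were fitted with edgeR 4.0.16 (R 4.3.3): filterByExpr on both groups, TMM scaling, genotype plus heat, quasi-likelihood F test, Benjamini-Hochberg over all 25994 tested features, threshold 0.05. The same settings gave the test against 1.5-fold, the genotype-by-heat terms, the offshore minus inshore difference (24 libraries) and the 31-day minus 5-day difference (36 inshore libraries). Log2 CPM used a prior count of 2. Standard errors were derived from the F statistic. Exact permutations exchanged arms within genotypes. Tests of isoforms and of sums per assembled gene were planned, but each assembled gene has 1 listed isoform, so components were used. The fitting was tested on simulated counts. DESeq2 1.42.0 and the other settings tried are given in the closing section.

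The same 9 tags stand in both arms, and every pair was alike beyond an r of 0.1. The departures of a tag's control and heated library from the mean of their group had r of 0.429 to 0.759 in the 9 pairs (median 0.625), against a median of 0.593 for other tags of the genotype and -0.238 between genotypes. In 5 of 9 pairs the control was most like the heated library of its own tag. No library repeated another: chi-square over its degrees of freedom was at least 4.72 in the 72 pairs within a group. Totals of 5017003 to 6686881 counts set the precision, and fitted errors cover the spread between fragments. The named features are those called in the same direction in all 9 tags with the largest gain or loss in mean CPM, 2 each. Members, classes and lists were chosen with earlier results of these data known.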

Additional observations from a re-analysis of the deposited data

Results flagged for a closer look

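In 2 of 34 groups of 9 values examined, 1 library lay far from the rest by Dixon's criterion, where chance gives about 1 group in 20. Among heated fragments, the A4 library held 461 CPM of OFAVBQ_DN220156_c0_g1_i1, and its distance to the next library was 0.84 of the whole range of the group. Among controls, the A4 library held 12.6% of its coral counts in the features that fell, and its distance to the next library was 0.636 of the range. Without the heated A4 fragment the log2 change of OFAVBQ_DN220156_c0_g1_i1 was -4.21 (edgeR adjusted p = 4.11e-06). Without the A4 control 1683 features were called lower, where 1760 were called with it.

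The response differed between genotypes for OFAVBQ_DN216671_c5_g1_i11 (edgeR adjusted p = 0.0305) and for OFAVBQ_DN221607_c2_g1_i5 (edgeR adjusted p = 0.0376), both with their largest log2 rise in In1, 2.85 and 2.62, in 3 of 3 tags. The heat response differed between offshore and inshore coral at 5 days in 31 features, 30 of them with a more negative log2 change offshore than inshore. It differed between 31 and 5 days inshore in 467 features, 155 of them rises and 194 of them falls at 5 days.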

How the results depend on the processing

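Every alternative kept the direction of the 4 named features, and the called changes of 3 of them passed under each of the 33 alternatives (edgeR or DESeq2 adjusted p at most 0.0122). The fourth, OFAVBQ_DN222629_c2_g2_i3, missed the threshold with no genotype term (-0.492, edgeR adjusted p = 0.0536) and without In3 (-0.449, edgeR adjusted p = 0.0638). The 3487 features called became 1738 (694 higher, 1044 lower) with no genotype term, 1324 (487 and 837) with counts summed per genotype and 1290 (482 and 808) without In3. Without In1, which like In3 has 3 tags, they were 3254 (1649 and 1605). With colony tags as the replicate block they were 2889 (1427 and 1462), and without the A4 and D3 controls, chosen after seeing the data, 2826 (1385 and 1441). Rises of at least 2-fold, 257, became 398 with no filter, 390 with the filter over 8 groups (chosen after seeing the data), 466 without In1 and 149 without In3. Falls of at least 2-fold, 614, became 1236 and the changes above 1.5-fold, 607, became 962 with no filter. Leaving out 1 library gave 2897 to 3748 features called. The genotype differences, 2, became 0 to 11 with 1 library left out, 12 without In4, 182 with DESeq2 and 1416 with no filter. They were 0 in edgeR without the A3 or BLY5 control or the heated A3, A4, A6 or D6 fragment (1655 to 2554 at an unadjusted p under 0.05). The offshore minus inshore count, 31, became 17 with the replicate block and 47 with DESeq2. The 31-day minus 5-day count, 467, became 1047 with DESeq2 and 220 without the heated B2 and B3 fragments, an alternative chosen after seeing the data. The heat share of the spread, 9.01%, was 7.739% with a prior count of 0.5, 11.08% for features of 10 CPM or more and 8.283% to 9.323% with 1 library left out. The same-sign share in In4 was 90.36% for features of 10 CPM or more. Among the other results fitted with the replicate block (counts of heat features, changes above 1.5-fold, components and the 4 named features) no call was lost and no count moved by over 1.5 times. The block was not run for the other results. Component counts, chosen after seeing the data, stayed within 1.5 times with the block, RLE size factors or 1 library left out, the only alternatives run for them; isoform tests could not be run. With library totals 1918 features were higher and 1547 lower, and with no filter 1305 and 2159. The cause of these changes was not tested. Standard errors were widest at 1 to 10 CPM (median 0.21).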
